A study of Mus musculus with 8 samples.

Results

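The 10 genes described here carry out glycolysis or belong to the transcriptional response to low oxygen: Pfkfb3, Pfkfb4, Hk2, Ldha, Pgk1, Slc2a1, Pdk1, Bnip3, Ndrg1 and Vegfa. They were chosen by gene name on the array, among spots that are not controls, and make up 10 of the 28508 genes on it. All 10 were among the 19361 genes measured, and each was well above background in both colours on all 8 arrays. RNA came from mouse small-intestinal organoids, which are self-renewing cultures of crypt epithelium, and was measured on Agilent arrays with 2 colours. The study asks how crypts depend on Ascl2, an intestinal stem-cell regulator that binds E-boxes, and on Tcf7l2, which acts downstream of Wnt.

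Each array set an RNA under study (own RNA) against a control RNA, and every culture had received a 16 h pulse of 4OH-tamoxifen, which activates the CreERT2 recombinase. In experiment 1, Ascl2 transduced organoids, in which the pulse switches on Ascl2 from a CMV promoter, were compared with VillinCreERT2 organoids, which carry the recombinase under an intestinal epithelial promoter. RNA was extracted after 24 h, and the 2 arrays had swapped dyes, with own RNA in Cy5 on replicate 1 and in Cy3 on replicate 2. In experiment 2, Tcf7l2null organoids (Tcf7l2 deleted by the pulse), Tcf7l2null/Ascl2 over expressing organoids and Ascl2 over expressing organoids had 1 array each, with own RNA in Cy5. Their control was dsGFP transduced organoids, in which the pulse induces GFP, while the Tcf7l2null label names no transduction. In experiment 3, Ascl2null organoids (Ascl2 deleted by the pulse) had 1 array with own RNA in Cy5 against VillinCreERT2 organoids. Experiments 2 and 3 also held 1 self-self array each, with the control RNA in both colours. The genotype field of the experiment 3 self-self array reads VillinCreERT2 and its description names Ascl2loxp/loxp organoids. In experiment 1 nothing in the labels says that the replicates came from separate cultures, so the p-values below measure only the spread between arrays, which may be technical. The conditions of experiments 2 and 3 have 1 array each and get no p-value on their own. The Ascl2 overexpression array of experiment 2 enters p-values only within fits over all 8 arrays, which assume that it varies as the replicated and self-self arrays do.

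Glycolysis turns glucose into pyruvate and, through lactate dehydrogenase, into lactate. When oxygen is low, hypoxia-inducible factors escape destruction and raise the transcription of glucose transporters, glycolytic enzymes, mitophagy receptors and angiogenic factors by binding a short core sequence in promoters and enhancers. In the intestine the epithelium works at low oxygen towards the lumen, and stem cells, Paneth cells and enterocytes differ in how far they rely on glycolysis or on mitochondria.

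RefSeq (GRCm38.p6) gave the 250 bases before the transcription start for 9 of the 10 genes, all but Ndrg1, in 13 windows. The core of the hypoxia response element was searched as ACGTG or GCGTG on both strands, and 9 genes held it in at least 1 window. Of all 32851 such promoter windows, 38.6% held the same core. The 4 windows below belong to Bnip3, Pfkfb4, Hk2 and Ldha, which with Ndrg1 are the genes with the largest ratios on single arrays, and capitals mark the core on either strand, so CACGT and CACGC are the core read from the opposite strand.
Bnip3, chr7:138909507-138909756, minus strand: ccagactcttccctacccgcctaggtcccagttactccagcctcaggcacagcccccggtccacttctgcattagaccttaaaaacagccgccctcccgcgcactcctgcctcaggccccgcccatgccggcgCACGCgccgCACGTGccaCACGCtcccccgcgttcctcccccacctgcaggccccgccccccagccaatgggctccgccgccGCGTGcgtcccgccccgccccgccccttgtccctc
Pfkfb4, chr9:108991652-108991901, plus strand: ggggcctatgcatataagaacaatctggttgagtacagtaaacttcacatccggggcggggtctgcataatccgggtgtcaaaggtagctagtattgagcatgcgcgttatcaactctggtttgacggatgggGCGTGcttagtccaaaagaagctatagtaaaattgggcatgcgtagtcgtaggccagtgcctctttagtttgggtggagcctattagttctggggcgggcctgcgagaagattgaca
Hk2, chr6:82774455-82774704, minus strand: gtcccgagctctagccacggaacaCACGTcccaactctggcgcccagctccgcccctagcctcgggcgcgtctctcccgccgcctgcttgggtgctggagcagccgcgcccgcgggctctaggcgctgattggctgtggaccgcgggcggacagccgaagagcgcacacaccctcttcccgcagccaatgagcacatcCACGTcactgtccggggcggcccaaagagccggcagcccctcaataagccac
Ldha, first of 2 listed starts, chr7:46845554-46845803, plus strand: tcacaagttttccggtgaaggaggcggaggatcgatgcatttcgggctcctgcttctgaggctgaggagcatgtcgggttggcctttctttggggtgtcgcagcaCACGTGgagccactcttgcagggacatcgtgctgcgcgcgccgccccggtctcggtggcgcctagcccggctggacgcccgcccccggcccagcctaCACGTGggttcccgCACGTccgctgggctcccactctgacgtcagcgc
Bnip3 and Ldha each held the core at 5 positions, counting both strands of the palindrome CACGTG, which lies once in the Bnip3 window and at 2 places in that of Ldha. Hk2 held it at 2 positions and Pfkfb4 at 1. CACGTG contains ACGTG on both strands and was present in 6.02% of all windows. The E-box CAGCTG was found for 1 gene, Pdk1, and in 13.0% of all windows. CTTTGA, the core bound by factors of the Tcf family, was found for Pfkfb4 and Ldha and in 13.8% of all windows. For Ldha it lies in the window of the other listed start, which is not printed, and not in the window above. Genes were counted over all their windows, while the shares are of single windows. All these finds are matches of letters, and binding was not measured here.

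The probe that stands for each gene is a 60-base oligonucleotide, and where a gene has several the brightest was used. In the array's annotation (build mm9) those probes lie at chr4:118809864-118809923 for Slc2a1, chr6:82675056-82675115 for Hk2, chr2:11393579-11393638 for Pfkfb3 and chr9:108934627-108934686 for Pfkfb4. They lie at chr7:54110889-54110948 for Ldha, chr2:71741820-71741879 for Pdk1, chr7:146083077-146083136 for Bnip3, chr15:66761057-66761116 for Ndrg1 and chr17:46154387-46154446 for Vegfa. Both Pgk1 probes are placed on chromosome 3, the brighter at chr3:57906703-57906762, while RefSeq lists Pgk1 on chromosome X, so the Pgk1 values may include RNA of a near-identical copy and are uncertain. Whether a probe lies in a coding exon or a UTR was not analysed here. For Pfkfb3 and Ldha the other probes span introns, with 60 bases drawn from a genomic stretch of 1414, 2263 and 930 bases, and they are shown because they did not all behave as the brightest probe did.
Pfkfb3 second probe, chr2:11404189-11405602: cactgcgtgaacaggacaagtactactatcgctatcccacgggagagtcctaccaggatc
Pfkfb3 last probe, chr2:11411973-11414235: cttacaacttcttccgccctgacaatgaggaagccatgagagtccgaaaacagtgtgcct
Ldha second probe, chr7:54109426-54110355: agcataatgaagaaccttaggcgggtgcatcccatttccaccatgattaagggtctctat

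Of the spots of each array, 50.1% to 61.1% were well above background in Cy3 and 53.8% to 67.4% in Cy5. The Ascl2 probe did not follow the labels of overexpression: its log2 ratio was -0.31 and 0.13 in experiment 1, -0.72 on the array labelled Ascl2 overexpression in experiment 2 and -0.92 where the label adds Tcf7l2 loss. On the Ascl2 null array it was -1.07. Tcf7l2 was at -0.35 on the Tcf7l2 null array but at 0.18, above its control, where Ascl2 overexpression joins the Tcf7l2 null label, beside 0.37 and -0.34 on the self-self arrays. Condition names below are therefore those of the labels. Whether either probe lies in the deleted or transduced part was not tested. All 9 epithelial markers were well above background in both colours on all 8 arrays, against 0 of 3 measured endothelial, 2 of 5 mesenchymal and 2 of 4 leukocyte markers. Markers of intestinal cell types differed strongly between arrays, and their values stand beside the results below. In bulk RNA, fewer cells of a type and less RNA per cell cannot be told apart.

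**Figure D1:**
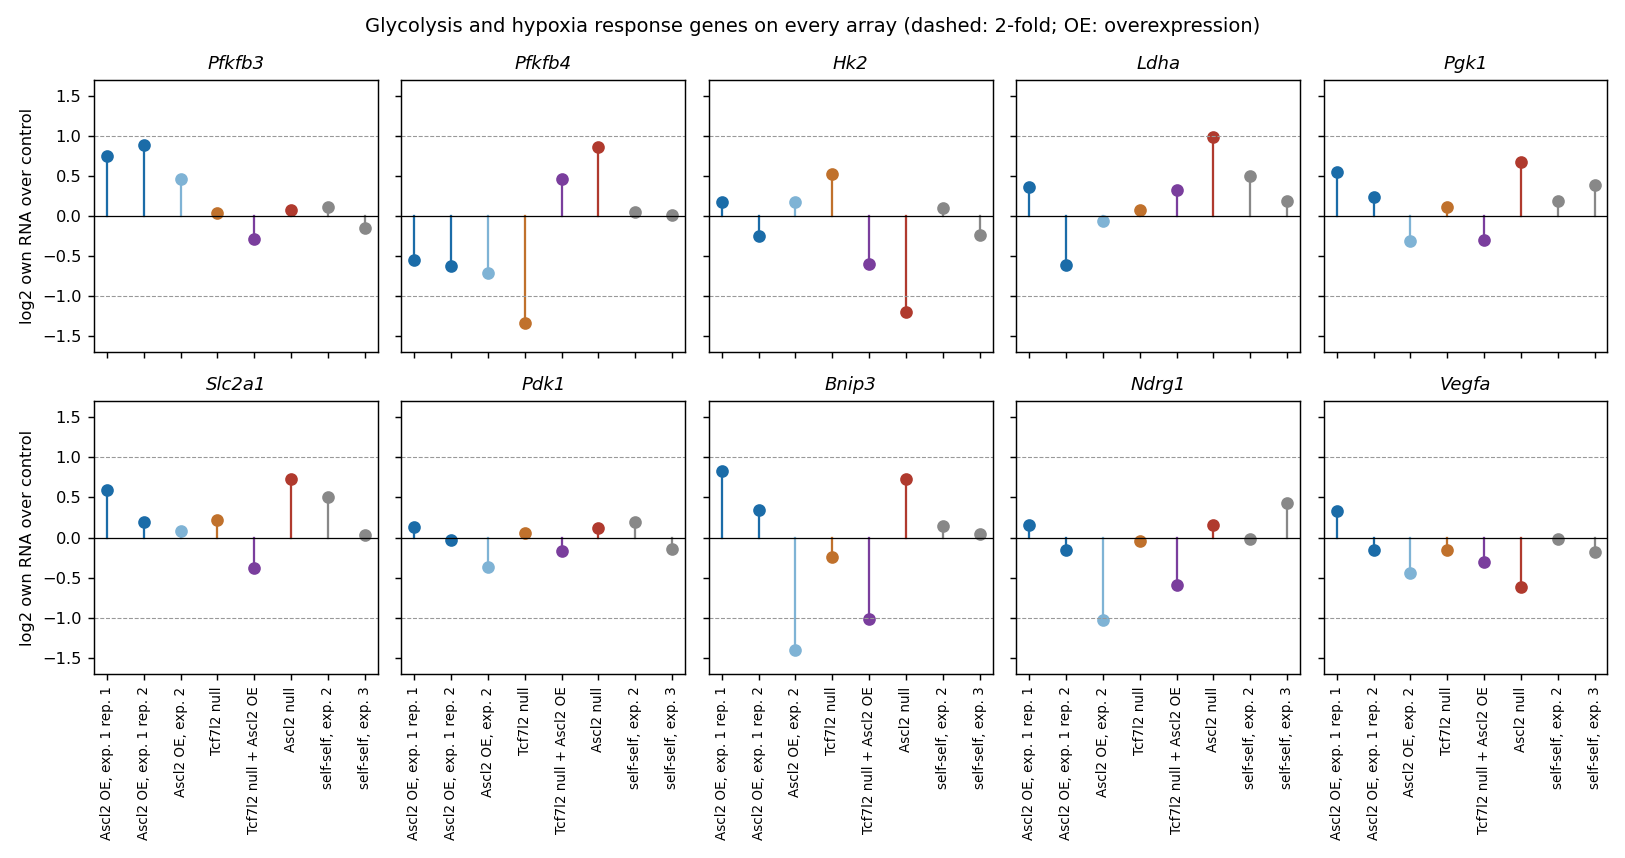
Log2 ratio of own RNA over control (vertical axis) for each of the 10 genes on each of the 8 arrays, 1 point per array, with dashed lines at 2-fold. Bnip3 is lowest on the array labelled Ascl2 overexpression in experiment 2 (-1.40), Pfkfb4 on the Tcf7l2 null array (-1.34) and Hk2 on the Ascl2 null array (-1.20), while the grey self-self points stay between -0.24 and 0.51.

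All values that follow are log2 ratios of own RNA over control, in which 1 is a 2-fold difference and 0 is none. Over the 10 genes, 0 reached 2-fold on either array of experiment 1, where 0.827% of all genes did on replicate 1 and 1.11% on replicate 2. On the array labelled Ascl2 overexpression in experiment 2, Bnip3 and Ndrg1 were at least 2-fold lower (2 of 10; 2.14% of all genes were at least 2-fold off). On the Tcf7l2 null array it was Pfkfb4 (0.951% of all genes), on Tcf7l2 null with Ascl2 overexpression, so labelled, Bnip3 (3.41%), and on the Ascl2 null array Hk2 (3.91%). All 4 genes lay below their control there. The self-self arrays had 0 of the 10 genes at 2-fold, against 0.0207% and 0.145% of all genes. Thus 4 of the 10 genes reached 2-fold on at least 1 of the 6 arrays of own RNA, as did 8.31% of all genes. The ratios of 7 of them spanned at least 2-fold over those 6 arrays, against 20.2% of all genes.

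Glucose enters the cell through Slc2a1, a facilitative glucose transporter. Its log2 ratio was 0.59 and 0.19 on the arrays of experiment 1, 0.08 on that labelled Ascl2 overexpression in experiment 2, 0.22 on Tcf7l2 null, -0.38 on Tcf7l2 null with Ascl2 overexpression and 0.73 on Ascl2 null. The self-self arrays read 0.50 and 0.03. Slc2a1 was therefore above 0 on 5 of the 6 arrays, but only the first array of experiment 1 and the Ascl2 null array lay beyond the larger self-self value. Hexokinase 2, encoded by Hk2, phosphorylates glucose in the first step of glycolysis. Hk2 read 0.17 and -0.25 in experiment 1, 0.18 on Ascl2 overexpression in experiment 2, 0.52 on Tcf7l2 null, -0.60 on Tcf7l2 null with Ascl2 overexpression and -1.20 on Ascl2 null, with 0.09 and -0.24 on the self-self arrays. Its own-RNA ratios spanned 1.72 on the log2 scale, highest on Tcf7l2 null and lowest on Ascl2 null.

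Pfkfb3 and Pfkfb4 encode bifunctional enzymes that set the pace of glycolysis by making and breaking down a regulatory fructose bisphosphate. This allosteric activator of phosphofructokinase is distinct from the fructose bisphosphate that is an intermediate of glycolysis. On the 3 arrays labelled Ascl2 overexpression these paralogs went in opposite directions. Pfkfb3 read 0.75, 0.89 and 0.47 on those arrays, 0.04 on Tcf7l2 null, -0.29 on Tcf7l2 null with Ascl2 overexpression and 0.07 on Ascl2 null, with 0.11 and -0.15 on the self-self arrays. Pfkfb4 read -0.55, -0.62 and -0.71 on those arrays, -1.34 on Tcf7l2 null, 0.46 on Tcf7l2 null with Ascl2 overexpression and 0.86 on Ascl2 null, with 0.05 and 0.01 on the self-self arrays. All 6 Pfkfb4 ratios were farther from 0 than its self-self values, and so were 4 of the 6 Pfkfb3 ratios. Pfkfb4 and Hk2 were close to mirror images over the 6 arrays of own RNA, which share control RNA within experiment 2 (Pearson r = -0.96, n = 6 arrays, given as a description).

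Among the later steps, phosphoglycerate kinase (Pgk1) yields ATP and lactate dehydrogenase A (Ldha) turns pyruvate into lactate. Pyruvate dehydrogenase kinase 1 (Pdk1) limits the oxidation of pyruvate in mitochondria by inhibiting pyruvate dehydrogenase. Pgk1 read 0.55 and 0.24 in experiment 1, -0.31 on Ascl2 overexpression in experiment 2, 0.11 on Tcf7l2 null, -0.30 on Tcf7l2 null with Ascl2 overexpression and 0.67 on Ascl2 null, with self-self values of 0.19 and 0.38. Ldha read 0.37 and -0.61 in experiment 1, with opposite signs under the swapped dyes, and -0.07, 0.07, 0.32 and 0.99 on the other arrays in the same order, with 0.51 and 0.19 on the self-self arrays. Pdk1 stayed within 0.13 and -0.03 in experiment 1 and read -0.37, 0.06, -0.17 and 0.12 on the others, with self-self values of 0.19 and -0.15. Read from the brightest probe of each gene, Pdk1 had the narrowest range of the 10 genes, 0.50. On that probe the -0.37 on Ascl2 overexpression in experiment 2 was its only ratio farther from 0 than both self-self values. The second Pdk1 probe ran more widely, from 0.71 on experiment 1 replicate 1 to -0.72 on Ascl2 overexpression in experiment 2. The highest Ldha and Pgk1 ratios both stood on the Ascl2 null array. Pgk1 was read from 10 spots on 7 arrays and from 9 on the experiment 2 self-self array, with an SD between spots of 0.02 to 0.19.

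Bnip3, a mitochondrial receptor for mitophagy and a classical hypoxia target, had the widest range of the 10 genes, 2.23. It read 0.82 and 0.34 in experiment 1, -1.40 on Ascl2 overexpression in experiment 2, -0.24 on Tcf7l2 null, -1.02 on Tcf7l2 null with Ascl2 overexpression and 0.73 on Ascl2 null, with 0.14 and 0.04 on the self-self arrays. All 6 own-RNA ratios lay beyond the self-self values, above 0 in experiments 1 and 3 and below 0 in experiment 2. Ndrg1, a stress-responsive gene linked to differentiation, read 0.16 and -0.16 in experiment 1, -1.03, -0.04 and -0.59 in experiment 2 in the same order, and 0.16 on Ascl2 null, with -0.02 and 0.44 on the self-self arrays. Vegfa, the angiogenic growth factor, read 0.33 and -0.15, then -0.44, -0.15 and -0.31, then -0.61, with -0.02 and -0.18 on the self-self arrays. Both Ndrg1 and Vegfa had opposite signs on the dye-swapped arrays of experiment 1, and Ndrg1 was lowest where Bnip3 was lowest.

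The first comparison asked for an effect of Ascl2 overexpression shared by the 3 arrays so labelled. Pfkfb3 was higher on 3 of 3 arrays and Pfkfb4 lower on 3 of 3, but after adjustment over all genes 0 of the 10 genes passed, beside 0.0568% of all genes (11 of 19361, limma, two-sided, Benjamini-Hochberg). The Pfkfb3 effect was 0.73 ± 0.105 (SE, n = 3; 95% interval 0.474 to 0.984), with an unadjusted p of 0.000371 and an adjusted p of 0.0862 in limma. That of Pfkfb4 was -0.63 ± 0.083 (SE, n = 3; 95% interval -0.831 to -0.429), with an unadjusted p of 0.000221 and an adjusted p of 0.0845 in limma. These 2 genes were also the only ones of the 10 at an unadjusted p under 0.05, as were 12.4% of all genes. Their effects kept the same sign in all 14 alternative analyses, which put them at 0.32 to 0.95 for Pfkfb3, lowest with a mean over its probes, and at -0.68 to -0.40 for Pfkfb4. Over these analyses the limma adjusted p ran from 0.0344 to 1 for Pfkfb3 and from 0.0265 to 1 for Pfkfb4. The other 8 genes had effects between -0.34 for Ndrg1 and 0.23 for Slc2a1, with limma adjusted p from 0.53 to 0.994. Their 95% intervals all include 0 and are wide for Bnip3, -0.994 to 0.93, and for Ndrg1, -0.937 to 0.248.

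**Figure D2:**
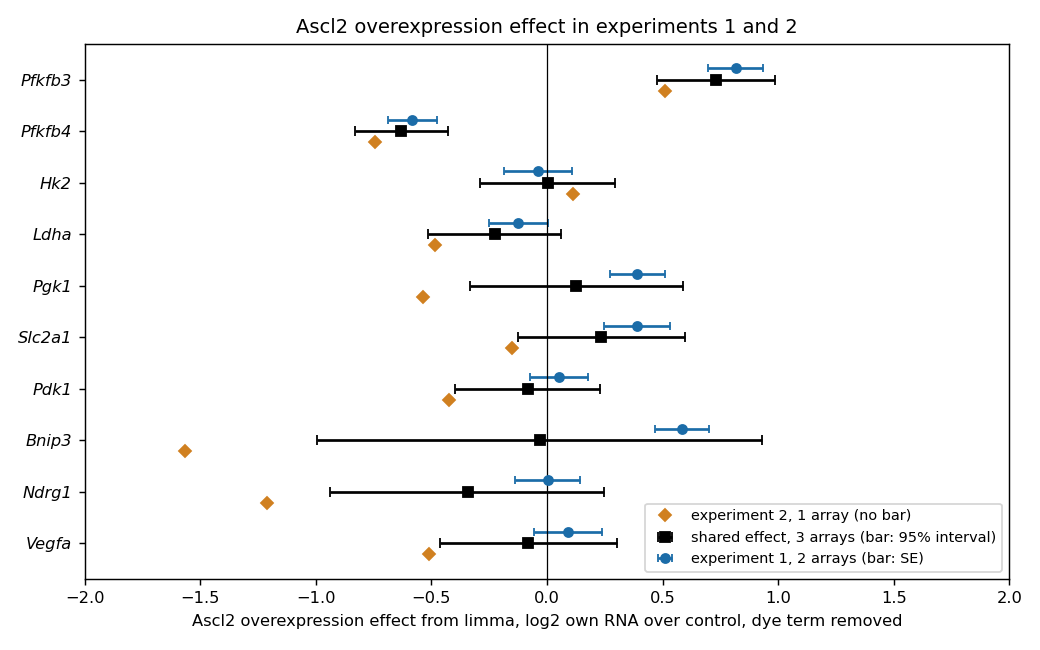
Ascl2 overexpression effect from limma on the log2 scale with the dye term removed (horizontal axis) for the 10 genes, as the effect shared by 3 arrays with its 95% interval (black squares), in experiment 1 with its SE (blue circles) and in experiment 2 from 1 array (orange diamonds). The intervals of Pfkfb3 (0.474 to 0.984) and Pfkfb4 (-0.831 to -0.429) lie clear of 0, and the experiments stand farthest apart for Bnip3, at 0.58 and -1.57.

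The second comparison asked whether the arrays labelled Ascl2 overexpression differed between experiments, with a dye term common to all arrays. Its spread comes from the dye-swapped and self-self arrays alone and is largely technical (2 residual degrees of freedom), and experiment 2 has 1 array. The p-values therefore set these arrays against technical spread and do not show a difference between cultures or conditions. Bnip3 was 0.58 ± 0.116 (SE, n = 2) in experiment 1 and -1.57 (n = 1) in experiment 2, a difference of -2.15 ± 0.217 (SE). Against that technical spread its limma adjusted p was 0.015, the only 1 of the 10 genes under 0.05, beside 0.766% of all genes (148 of 19323). At an unadjusted p under 0.05 there were 3 of the 10, all lower, beside 8.52% of all genes. The other differences were -1.21 ± 0.263 (SE) for Ndrg1 and -0.93 ± 0.222 (SE) for Pgk1, with limma adjusted p of 0.176 and 0.221. Those of Vegfa (-0.60), Slc2a1 (-0.54), Pdk1 (-0.47), Ldha (-0.36), Pfkfb3 (-0.30), Pfkfb4 (-0.16) and Hk2 (0.15) had limma adjusted p of 0.658 to 0.964. In all, 9 of the 10 lay below 0, as did 48.9% of all genes, and their median was -0.51 beside 0.01 over all genes. The Bnip3 difference was negative in all 11 alternative analyses, over which its limma adjusted p ran from 0.00439 to 0.678. It missed the threshold with arrays centred on their median (-2.47, adjusted p = 0.678), with the scanner's own ratios (-2.20, 0.0924), with the authors' deposited table (-1.85, 0.095) and without experiment 1 replicate 1 (-1.92, 0.198). Experiment, slide, scan and control culture cannot be told apart in this fit.

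Markers of cell types moved in the same comparison, and their part in the Bnip3 difference was not tested. The 7 stem-cell markers (Lgr5, Olfm4, Smoc2, Axin2, Cdca7, Slc12a2, Rgmb) had medians of 0.66 and 0.54 in experiment 1, -1.02 on Ascl2 overexpression in experiment 2 and -2.02 on Tcf7l2 null with Ascl2 overexpression. The 4 measured Paneth markers had medians of 0.33, 0.15, -1.96 and -2.15 on the same arrays, and the 6 measured enteroendocrine markers -1.09, -1.32, 3.10 and 3.64. Bnip3 was therefore low on the 2 arrays on which the stem-cell and Paneth medians were lowest and the enteroendocrine median high. Of the enteroendocrine markers, Chga read only -0.38 and 0.17 on these arrays. On the Ascl2 null array, where Bnip3 was at 0.73, the medians were -0.63 for stem-cell, 0.53 for Paneth, 4.10 for enteroendocrine and 1.34 for the 9 enterocyte markers. Of the 4 Paneth markers 3 lay above 0 there and Ang4 was at -1.15. Of the 9 enterocyte markers 7 lay above 0 there, while Sis was at -0.61 and Lct at -0.58. The Paneth median was 0.29 on the experiment 3 self-self array.

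**Figure D3:**
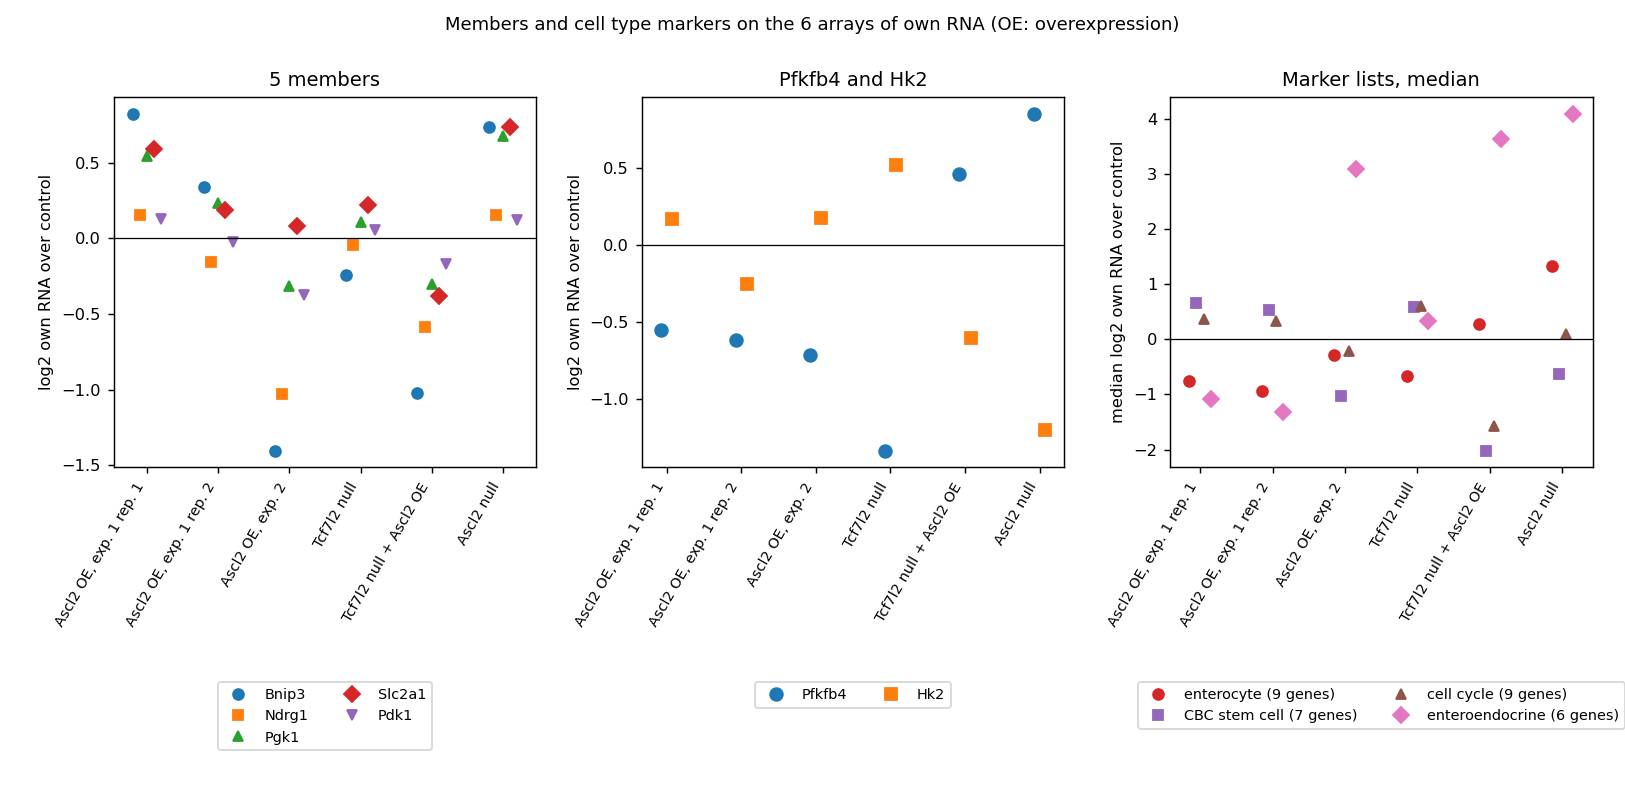
Log2 ratios of own RNA over control (vertical axes) on the 6 arrays of own RNA, for 5 of the genes (left), for Pfkfb4 and Hk2 (middle) and as medians of 4 marker lists (right). Bnip3 and Ndrg1 are lowest on the array labelled Ascl2 overexpression in experiment 2 (-1.40 and -1.03), and Pfkfb4 and Hk2 lie on opposite sides of 0 on 5 of the 6 arrays.

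Ascl2 overexpression added to Tcf7l2 null, both as labelled, was compared as the difference of 2 arrays of experiment 2 with the same dye and control, with no test. Pfkfb4 was 1.80 higher and Hk2 1.13 lower where the label adds Ascl2 overexpression than on Tcf7l2 null alone, the 2 of the 10 genes beyond 2-fold (7.68% of all genes). The remaining differences were -0.78 for Bnip3, -0.61 for Slc2a1, -0.55 for Ndrg1, -0.41 for Pgk1, -0.33 for Pfkfb3, -0.22 for Pdk1, -0.15 for Vegfa and 0.25 for Ldha. The median of all 10 was -0.37, beside 0.02 over all genes. Over 9 alternatives the Pfkfb4 difference ran from 1.73 to 1.91, that of Hk2 from -1.25 to -1.13 and that of Bnip3 from -0.85 to -0.75. With a mean over the probes of a gene that of Pfkfb3 was -0.04 and that of Ldha turned to -0.13. Against the array labelled Ascl2 overexpression alone, which has the same control, the array labelled Tcf7l2 null as well read 1.18 higher for Pfkfb4, the only 1 of the 10 genes beyond 2-fold (2.09% of all genes), and 0.78 lower for Hk2 and 0.76 lower for Pfkfb3. Bnip3 differed by 0.38 and Ndrg1 by 0.44 there. Between the Tcf7l2 null array and that with Ascl2 overexpression added, enterocyte markers differed by a median of 1.24 and cell-cycle markers by -2.03, and the part of either in the Pfkfb4 and Hk2 values was not tested. Pfkfb4 was negative on the 4 arrays on which the enterocyte median was negative (-0.76, -0.94, -0.29 and -0.66). Pfkfb4 was positive on the 2 on which that median was positive (0.28 and 1.34). With arrays centred on their median, however, the enterocyte medians turned positive on experiment 1 replicate 1 (0.05) and on Ascl2 overexpression in experiment 2 (0.33). That centring also moved the median of all genes, most on experiment 1 replicate 1, so these turned signs are not relative to all genes.

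On the Ascl2 null array 8 of the 10 genes lay above 0 and 2 below (49% of all genes lay below), with a median of 0.42. The experiment 2 self-self array also had 8 above 0 and 2 below, with a median of 0.12. That of experiment 3 had 6 above and 4 below, with a median of 0.02. On Ascl2 null, Ldha (0.99), Pfkfb4 (0.86), Slc2a1 (0.73), Bnip3 (0.73) and Pgk1 (0.67) were highest. Each exceeded its larger self-self value, 0.51, 0.05, 0.50, 0.14 and 0.38. Hk2 (-1.20) and Vegfa (-0.61) lay on the other side. The other Vegfa probes read -0.55, -0.06 and -0.11 on Ascl2 null, from brighter to dimmer. On the array labelled Ascl2 overexpression in experiment 2, 7 of 10 lay below 0 (48.1% of all genes) with a median of -0.34, and with the Tcf7l2 null label added 8 of 10 did (48.7%) with a median of -0.30. On Tcf7l2 null 4 of 10 lay below 0 (49.6%) with a median of 0.05. The medians below 0 in experiment 2 depended on the loess step: with arrays centred on their median instead, the 10 genes had medians of 0.11 and 0.05 on the 2 arrays labelled Ascl2 overexpression, beside 0.07 and 0.04 over all genes, and 0.25 on Ascl2 null, beside -0.07. Bnip3 and Ndrg1 stayed below 0 on Ascl2 overexpression in experiment 2 in all 11 alternative analyses, at -1.54 to -1.08 and -1.08 to -0.43, and Ldha, Pfkfb4, Slc2a1, Bnip3 and Pgk1 stayed above 0 on Ascl2 null in all 11. In experiment 1, 1 of 10 lay below 0 on replicate 1 (49.5%) and 6 of 10 on replicate 2 (50.6%), so the median of 0.35 on the first array was not repeated on the second, at -0.09.

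Over the 6 arrays of own RNA, 2 groupings appeared among the 10 genes. Bnip3 varied with Pgk1 (r = 0.97), Ndrg1 (0.94), Pdk1 (0.92) and Slc2a1 (0.81). These 5 genes were all lower on the 2 arrays of experiment 2 labelled Ascl2 overexpression than on the Tcf7l2 null array. Hk2 and Vegfa, outside this grouping, were lower there as well. Pfkfb4 followed Ldha loosely (0.68) and Bnip3 hardly at all (0.15). These coefficients rest on 6 arrays that share controls and are descriptions only. Genes most like Bnip3 over these arrays, among 3443 genes well above background in both colours on all 8 arrays and with a range of at least 2-fold, were P4ha2 (r = 0.975), a collagen prolyl hydroxylase induced by hypoxia, Mptx1 (0.972) and Prelid2 (0.97). P4ha2 read 0.99, 0.92, -0.83, 0.07, -0.91 and 1.28 in the order used above. Those most like Pfkfb4 were Elmod3 (r = 0.997), Pxmp4 (0.994), a peroxisomal membrane protein, and Sec16b (0.991). Sec16b read -0.36, -0.45, -0.35, -0.94, 0.24 and 0.65, a pattern of the same shape at a smaller size.

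Several of the 10 genes had further probes, which did not always follow the brightest. The dimmer Pfkfb3 probes, printed above, were well above background in a channel on 5 and 4 arrays and stayed between -0.29 and 0.18, so the Pfkfb3 ratios rest on 1 probe. For Ldha the second probe read 0.11 and 0.42 in experiment 1, where the first read 0.37 and -0.61, and -0.43 on Tcf7l2 null with Ascl2 overexpression, where the first read 0.32. Both Ldha probes were high on Ascl2 null, at 0.99 and 0.98. The second Pdk1 probe went further down in experiment 2 than the first, with -0.72 on Ascl2 overexpression and -0.59 with the Tcf7l2 null label added. It read 0.71 on experiment 1 replicate 1, where the first read 0.13, and had no value on replicate 2. On Ascl2 null it read -0.24, where the first read 0.12, and its self-self values were -0.05 and -0.11. For Vegfa the 3 other probes read -0.54, -0.46 and -0.36 on Ascl2 overexpression in experiment 2, all below 0 like the first. In experiment 1 replicate 2 they read 0.30, 0.42 and 0.13, above 0, where the first read -0.15. The second Pgk1 probe read 0.48, 0.04, -0.32, 0.12, -0.17 and 0.80 in the order used above, close to the first.

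**Figure D4:**
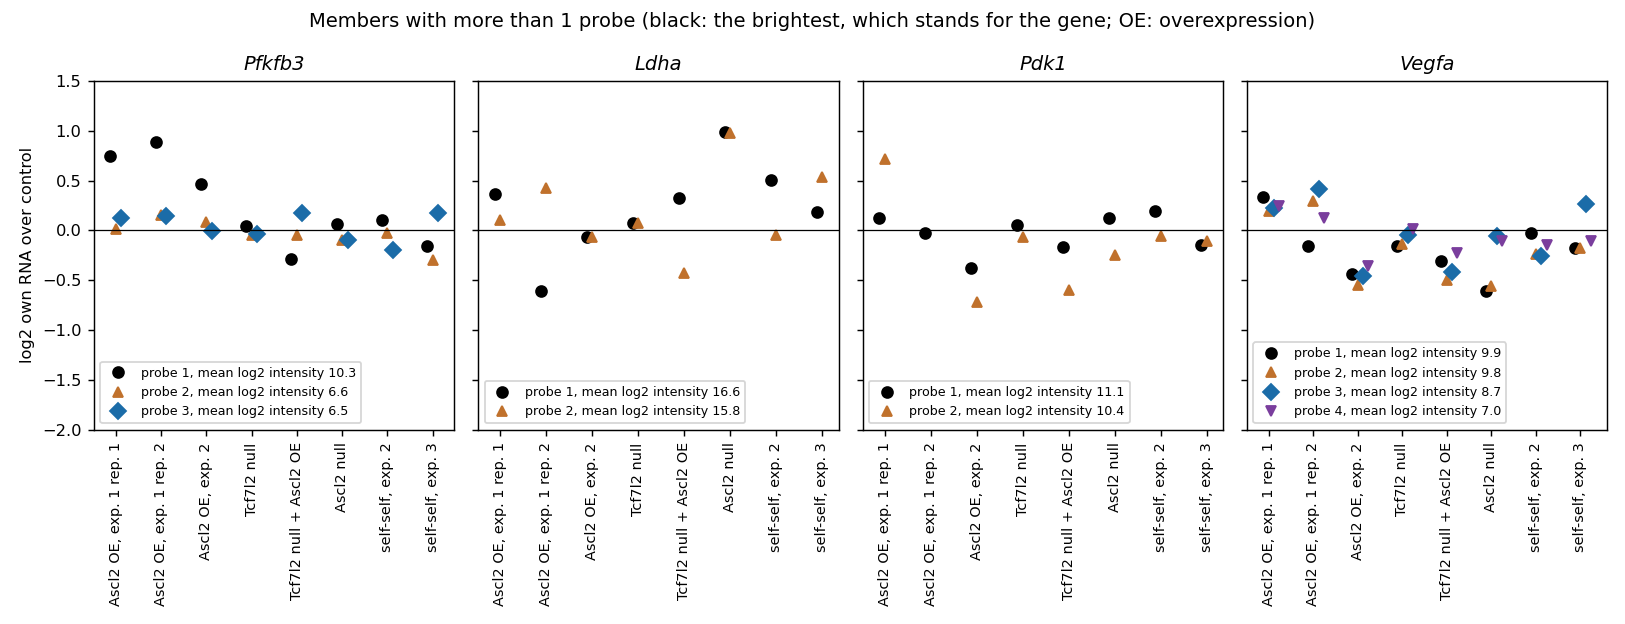
Log2 ratio of own RNA over control (vertical axis) on each of the 8 arrays for every probe of Pfkfb3, Ldha, Pdk1 and Vegfa, with the probe that stands for the gene in black. The Ldha probes coincide on Ascl2 null (0.99 and 0.98) and lie apart on experiment 1 replicate 2 (-0.61 and 0.42), and the dim Pfkfb3 probes stay between -0.29 and 0.18.

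The wider pathway was read from 5 lists. Of 22 further glycolytic enzymes 20 were measured, and 0 of 20 passed in limma for the shared Ascl2 overexpression effect (3 at an unadjusted p under 0.05, all lower, beside 12.4% of all genes) or for the difference between experiments (2 higher and 5 lower at an unadjusted p under 0.05, beside 8.52% of all genes in either direction). On the Ascl2 null array 18 of the 20 lay above 0 (49% of all genes lay below) with a median of 0.54. The experiment 3 self-self array had 15 of 20 above 0 and a median of 0.16. On Ascl2 overexpression in experiment 2, 16 of 20 lay below 0 (48.1% of all genes) with a median of -0.38. This median turned to 0.05 with arrays centred on their median, which also moved the median of all genes. The 10 genes above showed medians of the same sign on both arrays. Members of this list beyond 2-fold included the enolase Eno1 (-1.22 on Ascl2 overexpression in experiment 2), the hexokinase Hk1 (-1.03 on Tcf7l2 null with Ascl2 overexpression) and the phosphofructokinase Pfkl (1.07 on experiment 1 replicate 2 but 0.11 on replicate 1).

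Of 8 glucose and lactate transporters 7 were measured, and 0 passed in limma for the shared effect. At an unadjusted p under 0.05 in limma there were 3, all lower, beside 12.4% of all genes. The difference between the arrays of the experiments lay below 0 for 5 of 7, beside 48.9% of all genes. It was most negative for Slc16a3, the lactate exporter (-1.79), with 1 array in experiment 2. Slc16a3 read 0.41 and 0.54 in experiment 1, -1.41 on Ascl2 overexpression in experiment 2, -0.56 on Tcf7l2 null, -1.24 with both and 0.76 on Ascl2 null, with the sign of Bnip3 on each array. The enterocyte transporters Slc2a2, for glucose, and Slc2a5, for fructose, reached -1.39 on experiment 1 replicate 2 and -1.18 on Ascl2 overexpression in experiment 2, respectively. Of 14 regulators of fructose bisphosphate and pyruvate 12 were measured and 0 passed in limma for the shared effect. At an unadjusted p under 0.05 in limma 3 were higher and 4 lower, beside 12.4% of all genes in either direction. The difference between experiments lay below 0 for 7 of 12, beside 48.9% of all genes. Fbp1, the gluconeogenic fructose bisphosphatase, read -0.73, -1.16, -1.28, -1.12, 0.18 and 0.51 in the same order as Bnip3 above, with the signs of Pfkfb4 on each array. G6pc, the glucose phosphatase, was at -1.66 on Ascl2 overexpression in experiment 2 and -1.19 on Tcf7l2 null.

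All 12 genes of the oxygen-sensing machinery were measured and 0 passed in limma for the shared effect. At an unadjusted p under 0.05 in limma 2 were lower, beside 12.4% of all genes in either direction. The difference between experiments lay below 0 for 7 of 12, beside 48.9% of all genes. Hif1a, the oxygen-regulated subunit, read -0.51 and -1.01 in experiment 1, -0.57 on Ascl2 overexpression in experiment 2, -0.68 on Tcf7l2 null, 0.13 with both and -0.07 on Ascl2 null, but its self-self arrays read -0.29 and -0.75. Epas1, its paralog, read -0.94, -1.17, 0.07, -0.80, 0.71 and 1.00 in that order, with 0.21 and -0.17 on the self-self arrays. Arnt, their constant partner, lay between -0.45 and 0.10 and Vhl, which marks the subunits for destruction, between -0.16 and 0.30. The prolyl hydroxylase gene Egln3, itself induced by hypoxia, read 0.82, 0.92, -0.52, -0.14, -0.40 and 1.20, and Egln1 ranged from -0.40 to 0.98. The difference of Egln3 between experiments was -1.30, with a limma adjusted p of 0.0664.

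All 26 further hypoxia-inducible genes were measured, among them Egln3, which also counts in the list before. For the shared effect 0 passed (4 higher and 1 lower at an unadjusted p under 0.05, beside 12.4% of all genes). The difference between the arrays of the experiments lay below 0 for 19 of 26, beside 48.9% of all genes. It was most negative for P4ha2 (-1.89) and Ndrg2, a relative of Ndrg1 (-1.80), with 1 array in experiment 2. Ndrg2 read 0.19, 0.03, -1.59, -0.47, -0.18 and 1.1. The list lay above 0 for 21 and 22 of 26 genes in experiment 1, where 49.5% and 50.6% of all genes lay below. It lay below 0 for 18 of 26 on Ascl2 overexpression in experiment 2 (48.1% of all genes) and for 19 of 26 with the Tcf7l2 null label added (48.7%). On the self-self arrays 12 and 13 of 26 lay above 0. The medians of the list were 0.27 and 0.25 in experiment 1 and -0.23 on Ascl2 overexpression in experiment 2. They were -0.30 with the Tcf7l2 null label added, -0.01 on Tcf7l2 null and 0.10 on Ascl2 null. With arrays centred on their median those of the arrays labelled Ascl2 overexpression were 0.98 and 0.15 in experiment 1 and -0.02 and -0.06 in experiment 2. That centring also moved the median of all genes, most on experiment 1 replicate 1, so the 0.98 is not relative to all genes. Angptl4, a lipase inhibitor, went the other way and read 0.18, 0.24, 2.0, 0.22, 3.03 and 4.11, high on the 3 arrays on which the enteroendocrine median was high. On Tcf7l2 null with Ascl2 overexpression Car12, a carbonic anhydrase, read -1.55, Mif, a cytokine, -1.24 and Ddit4, an inhibitor of mTOR signalling, -1.11. Mif (0.71 and 1.12) and Ankrd37 (0.78 and 1.26) were both above 0 on the 2 arrays of experiment 1.

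**Figure D5:**
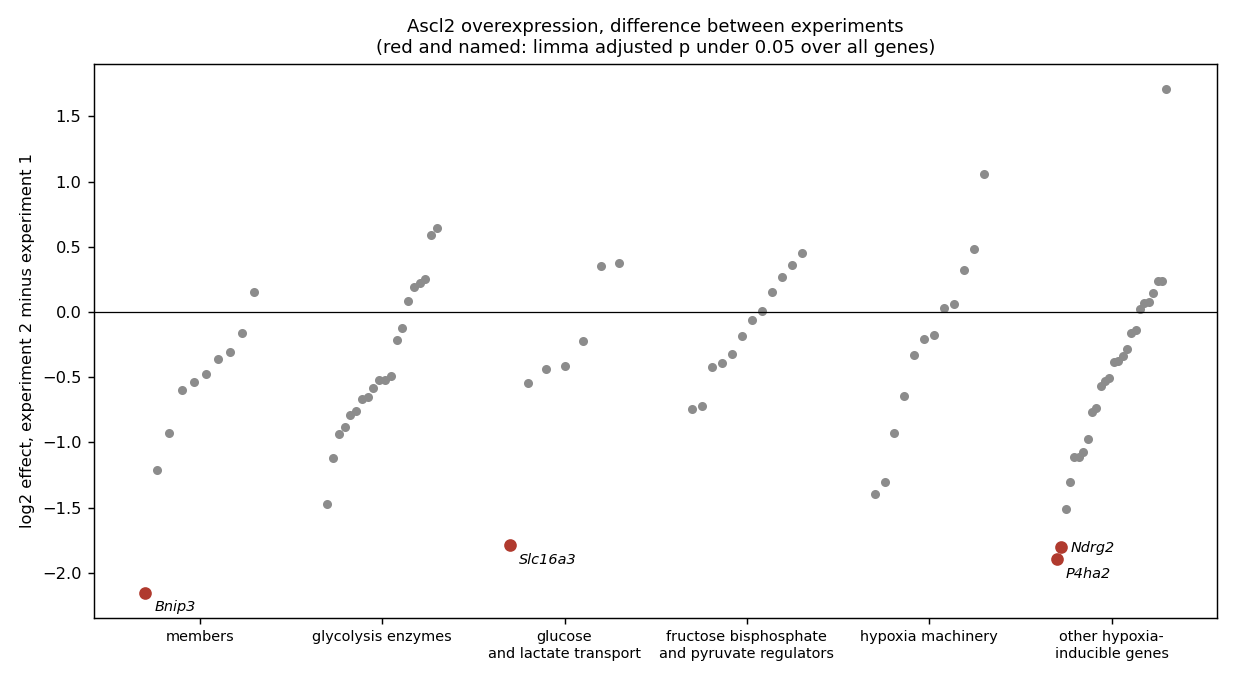
Ascl2 overexpression effect in experiment 2 minus experiment 1 on the log2 scale (vertical axis) for every measured gene of the 10 and of the 5 wider lists, 1 point per gene in rank order within its list (Egln3 is in 2 lists). The red, named genes had a limma adjusted p under 0.05 against technical spread, with 1 array in experiment 2: Bnip3 (-2.15), P4ha2 (-1.89), Ndrg2 (-1.80) and Slc16a3 (-1.79) all lie below 0.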

How the data were processed

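Total RNA (500 ng a channel) of 8 arrays had been labelled with Cy5 and Cy3. The deposited scanner files hold spot intensities and, per the file headers, come from Agilent Feature Extraction 10.5.1.1; each has 45018 spots, 1639 of them controls, and 0 were saturated. Their deposited log10 ratio is Cy5 over Cy3 after the scanner software's own corrections. A value table deposited by the authors holds log2 ratios. Set against the scanner files, it has their scale and direction (Cy5 over Cy3) with no further centring on the 6 arrays of experiments 2 and 3, and replicate 2 of experiment 1 is turned. In experiment 1, 91.3% and 91.5% of its values lay within 0.02 of the scanner ratio, and the sources used here do not say what was done to the rest. Its medians per array were 0.02 and -0.01 in experiment 1, 0.02 (self-self), 0 (Tcf7l2 null), 0.03 (with Ascl2 overexpression) and 0 (Ascl2 overexpression) in experiment 2, and 0 and 0 in experiment 3.

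Median spot intensities were corrected by normexp (offset 50) and normalised by loess within each array, with control and outlier spots at weight 0 (R 4.3.3, limma 3.58.1). Replicate 2 of experiment 1 had 63 spots with a local background over 5 times the array's median, up to 273778 in Cy5 against a median of 87, which raised the median corrected Cy5 intensity from 116 to 2872.6. After seeing the data these spots, and 1 each on 3 other arrays, were left out of that step, and the planned version was kept as an alternative. Spots of a probe were averaged, and a probe entered (27644 of 41174 did) if either channel exceeded background well on 2 arrays or more. Names came from RefSeq's table (GRCm38.p6) for 26918 probes by accession and from the array for 14256, and the brightest probe stood for a gene.

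Ratios were turned to own RNA over control. The shared Ascl2 overexpression effect and the difference between experiments were fitted with limma over all 8 arrays with a common dye term, as two-sided tests at 0.05 after Benjamini-Hochberg adjustment across every gene; conditions with 1 array were described by counts at 2-fold, without a dye term. The scripts were tested on simulated data. Precision rests on the number of arrays. Named were all 10 genes, genes of the wider lists at 2-fold on at least 1 array of own RNA (up to 8 a list, by size), 6 genes of oxygen sensing whatever their values, and the 3 genes most correlated with each of the 2 genes of widest range. A gene of the glycolytic list that met this rule is not reported here. The 10 genes and all lists were chosen with earlier results of these data known. Alternatives covered background, normalisation, filter, probe rule, dye term and each replicate left out.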

Additional observations from a re-analysis of the deposited data

Results flagged for a closer look

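Bnip3 differed between the arrays labelled Ascl2 overexpression of experiments 2 and 1 by -2.15 on the log2 scale, with a limma adjusted p of 0.015. That fit has 1 array in experiment 2 and takes its spread from dye-swapped and self-self arrays, so it compares these arrays with technical spread only. Ratios were 0.82 and 0.34 in experiment 1 and -1.40 in experiment 2.

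In experiment 2, a pair of genes had opposite signs for labelled Ascl2 overexpression with and without the Tcf7l2 null label, each beyond its self-self values, and these differences were not tested. Pfkfb4 was higher by 1.8 where Ascl2 overexpression joins the Tcf7l2 null label than on Tcf7l2 null alone, and read -0.71 on the array labelled Ascl2 overexpression. On these 2 overexpression arrays the Ascl2 probe itself read -0.92 and -0.72. Pfkfb3 read -0.33 and 0.47 in the same comparisons, but -0.04 and 0.18 with a mean over its probes. The first value of each gene is a difference of 2 arrays, and the ratio of the Tcf7l2 null array enters it. It was held against self-self values of single arrays, although a difference of 2 arrays carries more spread.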

How the results depend on the processing

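No paired analysis was possible because only the experiment 1 group carries replicate numbers. The dye term per experiment was not run for the difference between experiments, which leaves it no residual degrees of freedom. The count of 11 genes for the shared effect became 17 with offset 16, 17 without a filter and 164 without a dye term. It became 0 with median centring, scanner ratios, the authors' table, a dye term per experiment or the artefact spots kept. Leaving out arrays gave 0 to 168, with 0 without either replicate of experiment 1 and 168 without the experiment 2 array. The count of 148 for the difference became 242 (offset 16), 0 (median centring), 92 (both channels well above background on all arrays) and 81 (artefact spots kept, chosen after seeing the data), and 26 to 149 when an experiment 1 array was left out (26 without replicate 1). The causes were not tested.

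Of the members at 2-fold, the 1 on Tcf7l2 null became 0 and the 2 on Ascl2 overexpression 1 with median centring. The 1 on Tcf7l2 null with Ascl2 overexpression became 0 with scanner ratios, the authors' table or the dye term subtracted, and the 1 on Ascl2 null became 2 without background correction and 0 with the self-self ratio subtracted.

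Shared effects near 0 changed sign with median centring for Ldha (0.014), Pdk1 (0.143), Bnip3 (0.189) and Vegfa (0.119). With scanner ratios that of Hk2 did so (-0.003), and with a mean over probes that of Vegfa (0.032). With a dye term per experiment those of Hk2 (-0.014) and Bnip3 (0.158) changed sign. The Hk2 difference between experiments became -0.117 with median centring. Leaving out 1 array moved the shared effects over -0.039 to 0.249 (Hk2), -0.171 to 0.391 (Pgk1), -0.199 to 0.052 (Pdk1), -0.531 to 0.583 (Bnip3), -0.641 to 0.002 (Ndrg1) and -0.295 to 0.090 (Vegfa). Pfkfb3 passed without a dye term (limma adjusted p = 0.0344) and without the experiment 2 array (0.0473), and Pfkfb4 without a dye term (0.0265). Median centring moved the median of all genes by up to 0.44, on experiment 1 replicate 1. Of 250 alternative values of tested genes, 225 kept direction and side of the threshold, as did 55 of 78 counts within 1.5 times.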
